A study of Mus musculus with 11 samples.

Results

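The genes of the proteasome were described across the hypothalamus of wild-type mice (WT) and of mice heterozygous for a Myt1l mutation (Het). Members were the genes of the deposited expression table named Psma, Psmb, Psmc, Psmd, Psme, Psmf or Psmg with a number, pseudogenes left out. That rule took 49 of 14864 genes. One of them, Psmc3ip, matches by name only, since it encodes a partner of Psmc3 that acts in meiotic recombination, and it is counted apart. The other 48 comprised 18 core genes (Psma and Psmb), 25 regulatory genes (Psmc, Psmd and Psme) and 5 genes for an inhibitor and assembly chaperones (Psmf1 and Psmg1 to Psmg4). Levels are in CPM, the authors' corrected counts after their scaling between libraries. A mean of at least 1 CPM over all libraries was required for testing, and 47 of the 48 passed. Psma8, a testis form of an alpha subunit, was the exception, at 0 to 0.881 CPM over the 11 libraries. The series profiled hypothalamus RNA from adult mice aged 60 to 70 postnatal days, with 5 WT libraries (2 female, 3 male) and 6 Het libraries (3 female, 3 male). The series' title names MYT1L loss and the labels give the genotype as WT or Het, while the kind of mutation, the strain and any pooling of animals are not stated there.

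The proteasome degrades proteins that carry ubiquitin. Its core particle is a barrel of stacked rings, with outer rings of alpha subunits that gate entry and inner rings of beta subunits, of which Psmb5, Psmb6 and Psmb7 carry the proteolytic sites. In immune cells and after interferon, Psmb8, Psmb9 and Psmb10 take the places of Psmb5, Psmb6 and Psmb7. The regulatory particle caps the barrel: a ring of ATPases (Psmc) unfolds the substrate, and the Psmd subunits bind and remove ubiquitin. In neurons the complex also takes part in protein turnover at synapses. When proteasome activity falls, the transcription factor encoded by Nfe2l1 raises many subunit genes together through antioxidant response elements in their promoters.

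Corrected counts totalled 22921048 to 24941704 per library. The sum of CPM over all genes was 995932 to 1051798 in WT and 960874 to 997921 in Het, since the table equalizes the upper quartile of each library and not its total. All 8 hypothalamic peptide genes used as a tissue check were measured in every library, with a summed level of 2942 to 3867 CPM in WT and 1980 to 3230 CPM in Het. In the genotype fit described below, all 8 had negative differences and 5 fell, where 53% of all genes tested were negative and 1.14% fell. Striatal markers, summed over 12 genes, were at 1788 to 2277 CPM in WT and 2017 to 3721 CPM in Het. In the same fit 5 of the 12 rose, against 2.3% of all genes tested. Myt1l averaged 76.3 ± 15.9 CPM (SD) over the 5 WT and 76.3 ± 26.9 CPM over the 6 Het libraries, or -0.011 on the log2 scale (limma adjusted p = 0.976). The library labelled WT replicate 11 had the lowest WT value (51.1 CPM) and the library labelled Het replicate 9 the highest of all (130.0 CPM). Whether the labels of this pair are right was not tested, and the kind of mutation is not stated. The genotype medians and calls are given with and without this pair. Numbers before the hyphen in the sample descriptions, called prefixes here, fall unevenly over the groups: 14308 holds 2 WT and 2 Het males, 14309 holds 2 WT and 4 Het libraries, and 14111 holds 1 WT library.

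Stretches upstream of 4 members are shown because these genes carry the results below: Psmb10 and Psmd11 passed the test between genotypes, and Psmb5 and Psmb6 encode proteolytic sites. Psmb5 and Psmb6 did not pass that test. Psmb7, which passed and encodes a proteolytic site, is not shown because no RefSeq promoter was found for it. They come from RefSeq on GRCm38.p6, run 5′ to 3′ on the gene's strand, and end before the start of the gene in both RefSeq and GENCODE. Capitals mark the core of the antioxidant response element, searched as TGACNNNGC on both strands.
Psmb5, chr14:54618023-54618245, minus strand: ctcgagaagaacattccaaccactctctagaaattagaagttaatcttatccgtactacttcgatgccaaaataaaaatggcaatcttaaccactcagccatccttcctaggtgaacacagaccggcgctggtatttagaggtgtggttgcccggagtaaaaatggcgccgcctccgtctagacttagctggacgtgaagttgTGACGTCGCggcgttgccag
Psmb6, chr11:70525107-70525356, plus strand: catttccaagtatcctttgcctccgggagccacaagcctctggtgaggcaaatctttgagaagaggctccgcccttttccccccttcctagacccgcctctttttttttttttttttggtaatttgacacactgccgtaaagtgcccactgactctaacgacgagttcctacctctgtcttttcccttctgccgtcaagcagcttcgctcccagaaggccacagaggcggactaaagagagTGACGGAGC
Psmb10, chr8:105938445-105938642, minus strand: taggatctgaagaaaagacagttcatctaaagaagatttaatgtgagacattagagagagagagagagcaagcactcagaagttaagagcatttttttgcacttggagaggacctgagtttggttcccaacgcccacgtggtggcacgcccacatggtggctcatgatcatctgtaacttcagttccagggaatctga
Psmd11, chr11:80428365-80428614, plus strand: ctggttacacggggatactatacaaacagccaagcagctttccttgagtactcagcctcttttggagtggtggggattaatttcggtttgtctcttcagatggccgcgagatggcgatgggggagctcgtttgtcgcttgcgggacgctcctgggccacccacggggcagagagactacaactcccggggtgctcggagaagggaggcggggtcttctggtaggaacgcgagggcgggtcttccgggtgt
In Psmb5 the match TGACGTCGC lay 47 to 39 bases before the RefSeq start, and in Psmb6 the match TGACGGAGC lay 9 to 1 bases before it. No match was found in the windows of Psmb10 and Psmd11. RefSeq promoters were found for 40 of the 48 genes, and 5 of the 40 (12.5%) held the core within 250 bases of the start: Psmb5, Psmb6, Psmc6, Psmd9 and Psmd12. The share among all 32851 promoters was 10.2%. The CCAAT box, searched as CCAAT on both strands, was in 13 of the 40 (32.5%) and in 33.8% of all promoters. Both shares were near those of all promoters.

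Most subunit genes were abundant and varied little between the corrected WT libraries. The SD between the 5 WT libraries was under 10% of the mean for 35 of the 47 tested members. Levels between genes were compared per kb of exon, with all annotated exons of a gene merged. The 14 constitutive core genes had a median of 151.6 CPM per kb in WT and ranged from 49.7 for Psmb7 to 319.7 for Psma6. With the length of the principal transcript instead, the range ran from 126.5 for Psma2 to 746 for Psmb6, so the order of the core genes depends on the length used. The 17 constitutive Psmc and Psmd subunits, without the assembly chaperones, had a wider range, a factor of 45.3 against 6.44 in the core, or 20.8 against 5.90 with the principal transcript. Psmc5, an ATPase, was the highest under both lengths (538 and 570.0 CPM per kb), and Psmd3, a scaffold subunit, and Psmd11 were the lowest (11.9 and 22.7, or 27.4 and 50.8 CPM per kb).

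**Figure D1:**
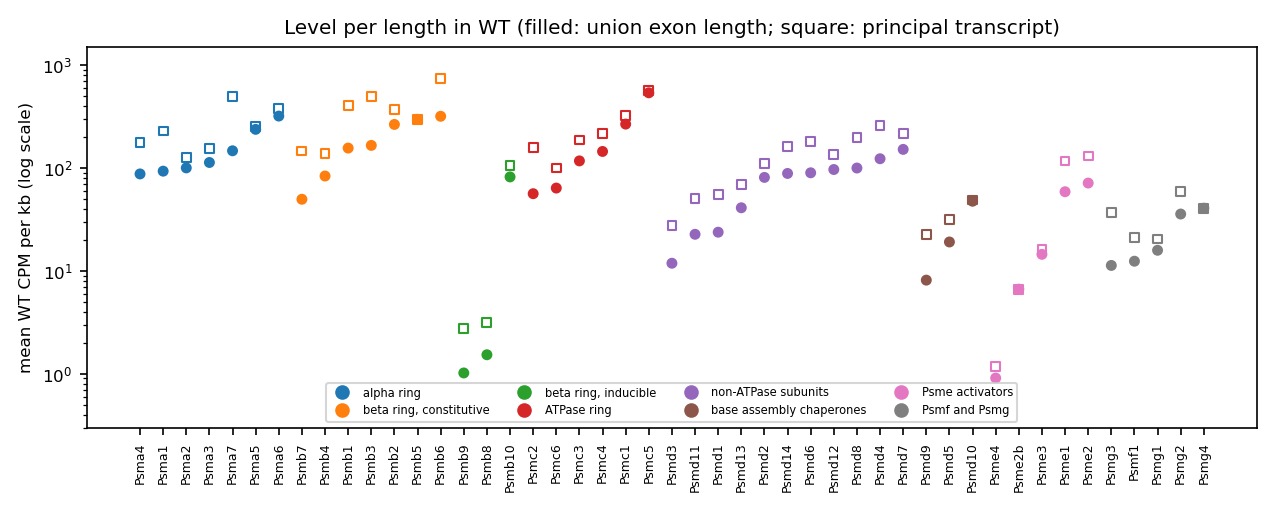
Mean WT level of each tested proteasome gene per kb, on a log axis, grouped by role and ordered by level within a role. Filled circles use merged exons and open squares the principal transcript; the inducible beta genes Psmb8 and Psmb9 and the activator Psme4 lie lowest, while Psmb10 lies near the constitutive subunits.

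The inducible subunits did not share one level. Psmb8 was at 5.17 ± 0.73 CPM and Psmb9 at 3.73 ± 1.19 CPM in WT (SD, n = 5), while Psmb10 was at 140 ± 11.6 CPM. Per kb of exon, Psmb8 made up 0.514% ± 0.079 of the sum of Psmb5 and Psmb8 in WT, and Psmb9 made up 0.317% ± 0.089 of the sum of Psmb6 and Psmb9. Psmb10 made up 62.2% ± 1.79 of the sum of Psmb7 and Psmb10. With principal transcripts the shares were 1.06% ± 0.16, 0.366% ± 0.103 and 42.1% ± 1.85, so which of Psmb7 and Psmb10 is higher depends on the length used. In Het the Psmb10 share was 61.9% ± 1.72 (SD, n = 6) per kb of exon, a difference smaller than the spread within either group. Markers of microglia, the resident immune cells of the brain, were at 697 to 775 CPM in WT and 700 to 755 CPM in Het, summed over 10 genes.

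Most proteasome genes had a slightly lower level in Het than in WT, and few passed the test alone. Of the 47 tested genes, 44 had a negative log2 difference, against 53% of all 13184 genes tested, and the median was -0.14 against -0.016 for all genes. The Het mean was 91.0% of the WT mean at the median member, with a range of 80.9% to 116%. By the limma fit with genotype and sex as terms, 2 genes fell (Psmb7 and Psmb10) and 1 rose (Psmd11), while 44 did not pass. Over all genes, 1.14% fell and 2.3% rose, 3.44% in all, so the share of members called (3 of 47) was not far from that background. At an unadjusted p under 0.05, 22 of the 47 were lower and 1 was higher, where 11.7% and 10.6% of all genes were. All Het values lay below all WT values for 5 members (Psmb4, Psmb7, Psmd4, Psmd6 and Psmd7), which holds for 1.33% of all genes, and above them for none, against 2.02% of all genes. Without the libraries labelled WT replicate 11 and Het replicate 9, 44 of 47 were again negative with a median of -0.14, and the core and regulatory medians were -0.17 and -0.12. None of the 47 passed there, while 1.74% of all genes did, and the limma adjusted p was 0.0590 for Psmb7, 0.0577 for Psmb10 and 0.0602 for Psmd11. Hypothalamic peptide and striatal marker levels differed between the genotypes as given above, and their part in these differences was not tested. In bulk tissue, fewer cells of a type and less RNA per cell cannot be told apart.

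**Figure D2:**
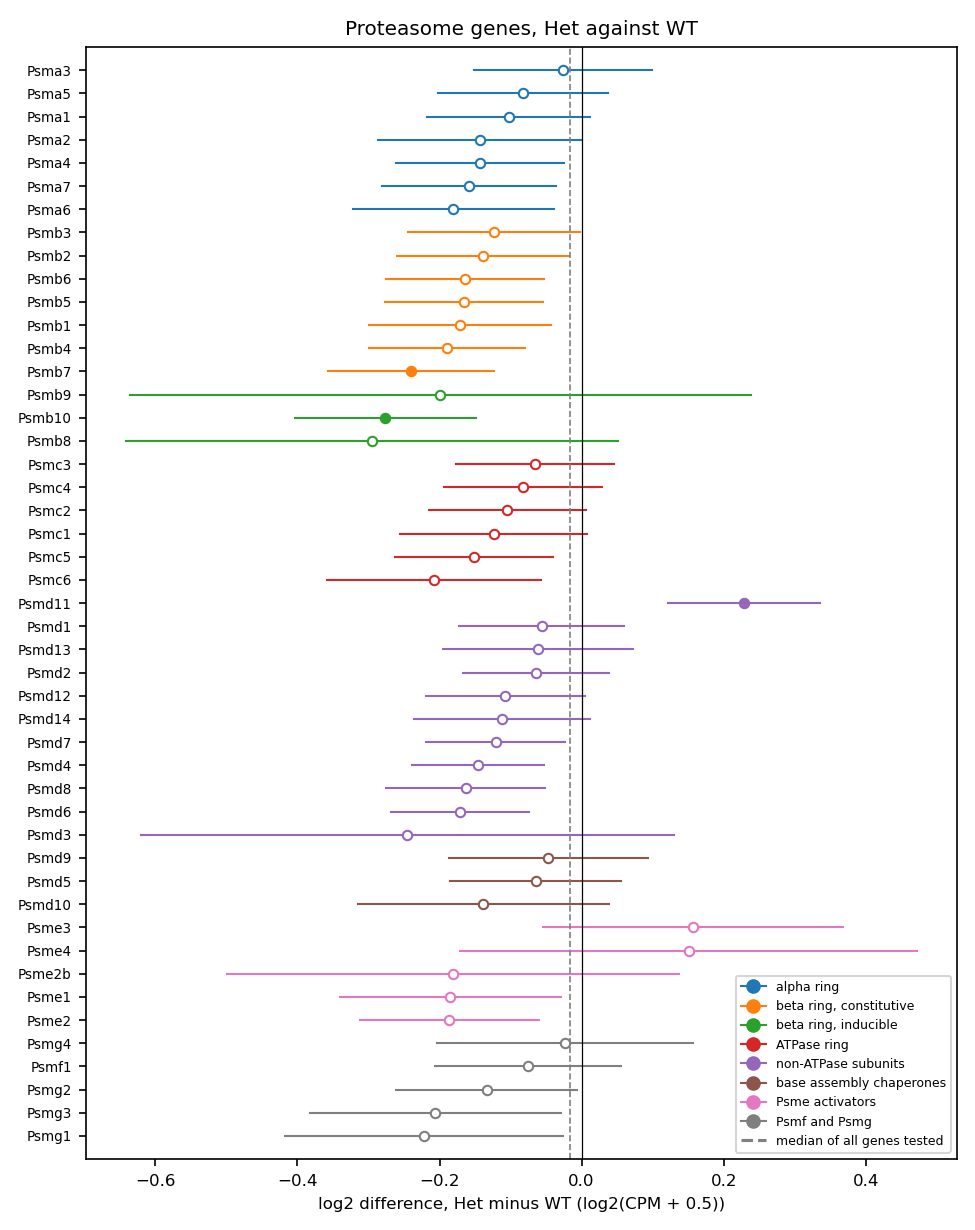
Log2 difference between Het and WT for each of the 47 tested proteasome genes, with the 95% confidence interval of the limma fit, coloured by role. Filled circles passed the adjusted threshold (Psmb7, Psmb10 and Psmd11), and the dashed line is the median of all genes, at -0.016.

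The 3 calls were not stable to single libraries. Leaving out each library in turn, Psmd11 passed in 7 of 11 runs (not without WT replicate 4 or 6 or Het replicate 2 or 9), Psmb10 in 6 (not without WT replicate 6 or 7 or Het replicate 2, 8 or 9) and Psmb7 in 5 (not without WT replicate 4 or 6 or Het replicate 2, 4, 8 or 9). The number that fell was 5 without WT replicate 3, where 6.22% of all genes were called, and 5 without WT replicate 11, where 3.32% were. The adjusted p ran from 0.0204 to 0.0935 for Psmd11, from 0.0140 to 0.0846 for Psmb10 and from 0.0266 to 0.0909 for Psmb7 over these runs, and each gene kept its direction in all of them. With each library scaled to the same total, 36 of 47 members were negative, against 40.1% of all genes, with a median of -0.072. The median of all genes moved to 0.048 there, and Psmb10 fell and Psmd11 rose, where 5.92% of all genes were called. With quantile normalization 40 were negative with a median of -0.057, with the same pair called, where 3.52% of all genes were called.

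Transcript length went along with the genotype difference over the whole table. The longest annotated transcript had a median of 1883 bp for the 47 members and 3450 bp for all genes, and GC content had a median of 49.7% in both. Genes were split by this length into 4 bins of equal size. In the shortest bin (204 to 2258 bp), the median log2 difference was -0.13 and 84.0% of genes were negative. In the longest bin (4878 bp and more) the median was 0.13 and 23.8% were negative. Of the 47 members, 32 lay in the shortest bin, where all 32 were negative with a median of -0.15, and 11 lay in the next, with a median of -0.064. After removal of the length trend in each library, 26 of 47 members were negative, against 50.3% of all genes, and their median was -0.0097 against -0.0012 for all genes. With length and GC content both taken out, 28 were negative, against 49.9% of all genes, and the median was -0.013. Psmd11 rose in both of these fits (0.26 in each, limma adjusted p = 0.0315 and 0.0293), and Psmb7 fell with both terms (-0.20, limma adjusted p = 0.0419) and did not pass with length alone (-0.21, limma adjusted p = 0.158). Psmb10 did not pass in either (-0.13 in each). Over all genes, 0.85% were called with length alone and 1.24% with both terms taken out.

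**Figure D3:**
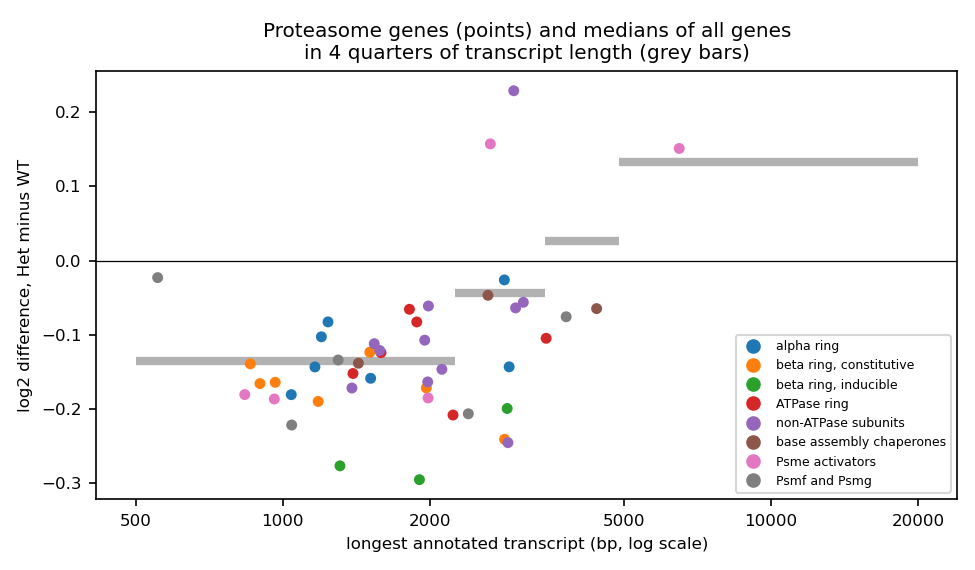
Log2 difference between Het and WT against the length of the longest annotated transcript (log axis) for the 47 proteasome genes, coloured by role. Grey bars are the medians of all genes in 4 bins of length, drawn from 500 to 20000 bp; they rise from -0.13 to 0.13, and most members lie near the bar of the shortest bin.

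In the core particle all 17 tested genes had a negative difference, with a median of -0.16, and 2 of them fell. Of all genes, 53% were negative and 1.14% fell. With the length trend taken out, 9 of the 17 core genes were negative, against 50.3% of all genes. The 7 alpha genes ran from -0.026 (Psma3) to -0.18 (Psma6) and none passed. The smallest p among them was that of Psma7, with 409.6, 427.0, 451.2, 471.4 and 498.2 CPM in WT and 382.7 to 439.5 CPM (median 400.0) in Het, or -0.16 on the log2 scale (SE 0.058, limma adjusted p = 0.124). Its groups overlapped. The 7 constitutive beta genes ran from -0.12 (Psmb3) to -0.24 (Psmb7), each with an unadjusted p under 0.05. Of all genes, 11.7% were lower at that threshold. With the length trend taken out, these 7 genes ran from -0.21 (Psmb7) to 0.048 (Psmb2), on both sides of zero.

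Psmb7 encodes the subunit with trypsin-like activity (ENSMUSG00000026750, mm10 chromosome 2 from 38588036 to 38644087). It was at 160.5, 162.8, 167.6, 175.8 and 182.8 CPM in WT and at 136.6 to 155.2 CPM (median 143.1) in Het. The groups did not overlap. Psmb7 fell by 0.24 on the log2 scale (SE 0.055, limma adjusted p = 0.0278), in a gene whose exons overlap those of Nek6 on the opposite strand, so part of its reads is uncertain. Psmb5, with chymotrypsin-like activity (ENSMUSG00000022193, chromosome 14 from 54614119 to 54618022), was at 236.6, 264.4, 274.5, 275.1 and 285.1 CPM in WT and at 220.9 to 251.3 CPM (median 241.3) in Het. Only WT replicate 11 lay within the Het range, and the difference of -0.17 did not pass (SE 0.053, limma adjusted p = 0.0886). Psmb6, with caspase-like activity (ENSMUSG00000018286, chromosome 11 from 70525367 to 70527858), was at 548.8, 580.7, 588.9, 627.5 and 632.0 CPM in WT and at 504.5 to 589.7 CPM (median 524.7) in Het. Het replicate 7 lay above 3 of the WT values, and the difference was -0.16 (SE 0.052, limma adjusted p = 0.0905). With the length trend taken out, Psmb5 and Psmb6 were at 0.018 and 0.012.

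Psmb10, the inducible counterpart of Psmb7, fell by 0.28 on the log2 scale (SE 0.060, limma adjusted p = 0.0224). The gene (ENSMUSG00000031897) lies on chromosome 8 from 105935735 to 105938444. Its values were 128.5, 134.4, 136.3, 139.8 and 159.1 CPM in WT and 105.5 to 139.9 CPM (median 115.5) in Het. The overlap came from Het replicate 7, which was as high as WT replicate 4, while the other 5 Het values lay below every WT value. Psmb8, the counterpart of Psmb5, was at 4.34, 4.83, 4.83, 5.75 and 6.12 CPM in WT and 3.33 to 5.70 CPM in Het (-0.29, SE 0.16, limma adjusted p = 0.302). Psmb9, the counterpart of Psmb6, was at 2.69, 3.04, 3.34, 3.86 and 5.71 CPM in WT and 1.56 to 4.86 CPM in Het (-0.20, SE 0.21, limma adjusted p = 0.603). The Psmb9 difference ran from -0.054 without Het replicate 8 to -0.34 without WT replicate 4. Both overlapped widely, at levels where the spread between libraries is large, and both share exon sequence with genes on the opposite strand (Gm20496 and Tap1).

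**Figure D4:**
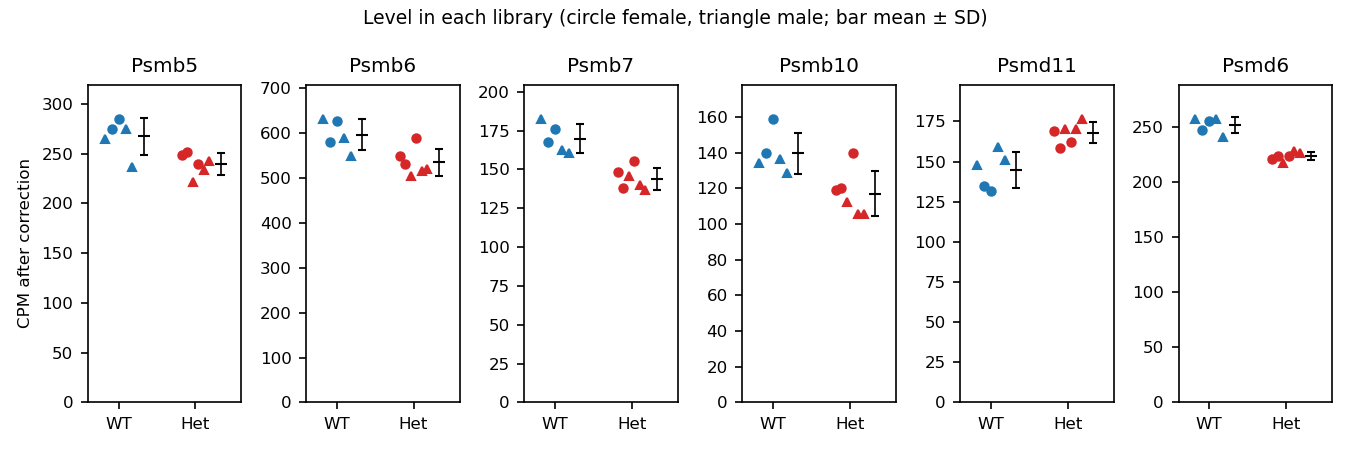
CPM of 6 proteasome genes in each of the 11 libraries, with the mean and SD of each group. Psmb7 and Psmd6 do not overlap between groups, and Psmb5, Psmb6 and Psmb10 overlap through 1 or a few libraries. Psmd11 is higher in Het, with WT replicate 7 just above Het replicate 4.

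Among the 25 regulatory genes, 22 had a negative difference, 1 rose, none fell and the median was -0.11. Of all genes, 53% were negative, 2.3% rose and 1.14% fell. With the length trend taken out, 14 of the 25 regulatory genes were negative, against 50.3% of all genes. The 6 ATPase genes were all negative, from -0.066 (Psmc3) to -0.21 (Psmc6), and none passed. Psmc6 was at 195.9, 207.3, 220.3, 226.0 and 266.6 CPM in WT and 177.8 to 203.3 CPM (median 193.0) in Het (SE 0.071, limma adjusted p = 0.104). WT replicate 3 stood high in Psmc6, as it did in Psmc4 (346.0 CPM against 298.3 to 309.9 CPM in the other WT libraries).

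Psmd11 encodes a scaffold subunit that helps to hold the regulatory particle on the core (ENSMUSG00000017428, chromosome 11 from 80428615 to 80473248). Its difference was positive, as were those of Psme3 and Psme4 alone among the other 46 tested members. Its values were 131.7, 134.5, 147.6, 150.7 and 159.0 CPM in WT and 158.5 to 176.8 CPM (median 169.7) in Het. The groups met at a single point, where WT replicate 7 was just above Het replicate 4. Psmd11 rose by 0.23 on the log2 scale (SE 0.051, limma adjusted p = 0.0239). The difference was 0.29 in females alone and 0.18 in males alone, and 0.15 within prefix 14308 and 0.28 within prefix 14309. None of these 4 fits called it. With the prefix as a block Psmd11 was at 0.22 and did not pass (limma adjusted p = 0.0623).

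Of the other 10 non-ATPase subunits, none passed and all were negative. Psmd6, part of the lid, was closest to the threshold: 240.9, 247.4, 254.9, 256.8 and 257.4 CPM in WT against 217.4 to 227.6 CPM (median 223.3) in Het, with no overlap (-0.17, SE 0.046, limma adjusted p = 0.0506). Psmd4, a ubiquitin receptor, had a mean of 345 ± 7.62 CPM in WT and 313 ± 9.86 CPM in Het (SD, n = 5 and 6; -0.15, limma adjusted p = 0.0738). Psmd7, the partner of the deubiquitinase Psmd14, had a mean of 343 CPM in WT and 315 CPM in Het (-0.12, limma adjusted p = 0.138), and neither gene overlapped between the groups. After removal of the length trend, Psmd6 was at -0.032, Psmd4 at -0.060 and Psmd7 at 0.0049. Psmd3 varied most among the abundant members. It was at 32.0, 52.5, 53.3, 78.4 and 78.5 CPM in WT and 39.2 to 57.2 CPM in Het, so its difference of -0.25 had a standard error of 0.18.

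The assembly chaperones of the base, Psmd5, Psmd9 and Psmd10, were at -0.065, -0.047 and -0.14 and none passed. Psmd10, also known as gankyrin, had the smallest p of them, with 58.2, 64.0, 69.0, 74.6 and 83.3 CPM in WT and 59.2 to 68.1 CPM in Het (SE 0.083, limma adjusted p = 0.342). Its difference was -0.075 without WT replicate 3 and -0.20 without WT replicate 11. Psme1 and Psme2 form an activator that caps the core in place of the regulatory particle and is induced by interferon. Psme1 was at 119.6, 122.8, 132.0, 133.9 and 141.0 CPM in WT and 100.4 to 142.6 CPM (median 112.4) in Het (-0.18, SE 0.074, limma adjusted p = 0.152). Psme2 was at 114.8, 122.0, 128.2, 129.9 and 134.7 CPM in WT and 103.1 to 124.7 CPM (median 108.3) in Het (-0.19, SE 0.060, limma adjusted p = 0.0901). The 2 genes thus had similar levels and differences, and Het replicate 7 was the highest Het library for Psme1 and Het replicate 2 for Psme2. Psme2b, a close copy of Psme2 whose reads may be shared with it, was at 5.56 ± 0.69 CPM in WT. The nuclear activators had positive differences that did not pass, 0.16 for Psme3 (SE 0.099, limma adjusted p = 0.367) and 0.15 for Psme4 (SE 0.15, limma adjusted p = 0.592). With the length trend taken out, Psme3 was at 0.20 and Psme4 at 0.022, and neither passed.

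Psmf1, which encodes a proteasome inhibitor, and Psmg1 to Psmg4, which encode chaperones of core assembly, all had negative differences in the fit, from -0.023 (Psmg4) to -0.22 (Psmg1), and none of the 5 passed. The raw means of Psmg4, without the sex term, lay the other way (22.6 CPM in WT and 22.7 CPM in Het). By the smallest p, Psmg3 led them at 28.5, 31.5, 32.5, 33.5 and 37.4 CPM in WT and 25.7 to 30.8 CPM (median 28.6) in Het (-0.21, SE 0.083, limma adjusted p = 0.160). Psmc3ip, the gene that matches by name only, was at 8.11 ± 1.14 CPM in WT and 8.30 ± 0.97 CPM in Het, a difference of 0.018.

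The level of the family was also described library by library. For each library the deviation of every gene from its own mean over the 11 libraries was taken, and the median over genes was used as a description. Core genes were at 0.17, 0.12, 0.10 and 0.022 in WT replicates 3, 6, 7 and 4 and at -0.029 in the library labelled WT replicate 11. They were at 0.036 and 0.0066 in Het replicates 7 and 2 and between -0.15 and -0.072 in the other 4 Het libraries. All 17 core genes were above their own mean in WT replicates 6 and 7, and 0 of 17 were in Het replicates 8 and 9. Of all 13184 genes tested, 6704 and 7366 were above their mean in WT replicates 6 and 7. In Het replicates 8 and 9, 6635 and 6023 were. These levels were not corrected for transcript length. For core genes the groups overlapped through WT replicate 11 and the female Het replicates 2 and 7. Regulatory genes ran from -0.012 to 0.13 in WT and from -0.10 to -0.018 in Het, with no overlap. The groups nearly met, with WT replicate 11 at -0.012 and Het replicate 7 at -0.018. That gap is small beside the within-group SD of this level, 0.045.

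**Figure D5:**
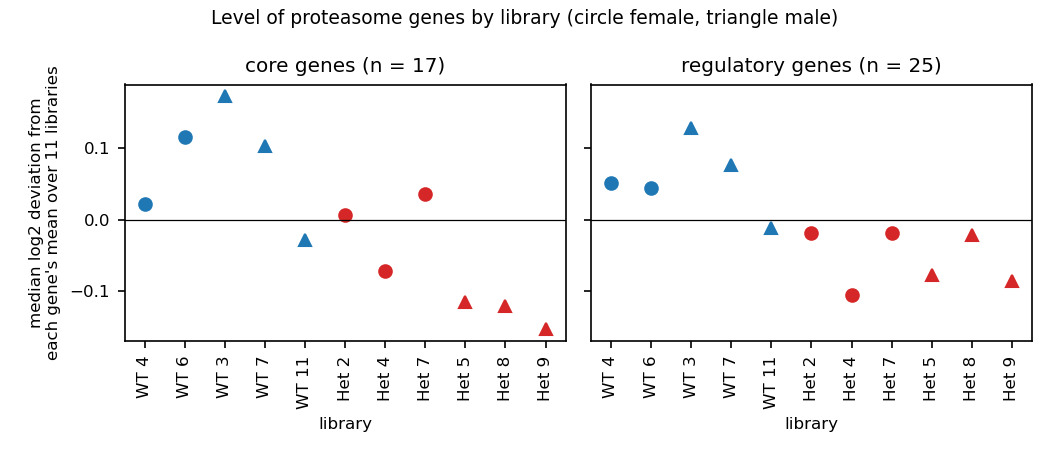
Median log2 deviation of the 17 core and the 25 regulatory genes from each gene's mean over the 11 libraries, per library. WT replicate 3 is the highest library in both panels, and WT replicate 11 is the lowest WT library in both.

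Females and males were compared in the same fit and no proteasome gene passed for sex, against 0.197% of all genes (7 of 47 at an unadjusted p under 0.05, against 12.2% of all genes). The smallest adjusted p was that of Psmb10, with a mean of 136 CPM over the females and 120 CPM over the males (male minus female -0.20, limma adjusted p = 0.213). The genotype by sex term passed for no gene of the table, a share of 0%, and at an unadjusted p under 0.05 for 1 member, Psma5, and 4.65% of all genes. In females alone the core median was -0.066 with 14 of 17 genes negative, and in males alone it was -0.22 with 17 of 17 negative. For regulatory genes the medians were -0.072 (21 of 25 negative) and -0.13 (22 of 25). Within prefix 14308 the core median was -0.27 and within prefix 14309 it was -0.11, and the regulatory medians were -0.16 and -0.090.

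Genes that work with the proteasome were measured in the same fit, which was not corrected for transcript length. Of 26 partner genes, 25 were tested and none passed, with 12 negative and a median of 0.014. Those with the smallest p went in both directions. Ddi2, the protease that releases the active form of the Nfe2l1 product, averaged 13.9 ± 0.83 CPM over the 5 WT and 18.2 ± 2.18 CPM over the 6 Het libraries (± SD), with no overlap (0.37, SE 0.10, limma adjusted p = 0.0524). Uchl5, a deubiquitinase bound to the regulatory particle, was at 137 ± 12.6 CPM in WT and 115 ± 8.04 CPM in Het, with overlap (-0.26, SE 0.070, limma adjusted p = 0.0537). Nfe2l1 itself was at 85.2 ± 2.45 CPM in WT and 94.1 ± 1.83 CPM in Het, with no overlap (0.15, SE 0.051, limma adjusted p = 0.112). All Het values lay above all WT values for 2 of the 25 tested partners, Ddi2 and Nfe2l1, and for 2.02% of all genes. Of the other partners, Mafg was at 0.28, while Pomp, with a smaller p than Nfe2l1, was at -0.18. Ngly1 was at -0.19, Vcp at -0.13 and Nfe2l2 at 0.044, and none of these passed. Of 20 genes for ubiquitin and its enzymes none passed, 14 were negative and the median was -0.032, with the conjugating enzyme Ube2l3 at 0.18 (limma adjusted p = 0.0649) and the deubiquitinase Uchl1 at -0.19 (limma adjusted p = 0.0723). Of 10 antigen presentation genes, 9 were tested and none passed, with 6 negative and a median of -0.20. B2m, the light chain of class I molecules, was at -0.20 (limma adjusted p = 0.105) and H2-D1, a heavy chain, at -0.22 (limma adjusted p = 0.174).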

How the data were processed

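RNA of 11 hypothalamus libraries was measured. Per the labels, a Zymo kit and the SMARTer Ultra Low RNA kit were used, and the submitters' processing notes name Trimmomatic, Bowtie2, STAR, HTSeq and build mm10. The deposited values are log2 CPM plus a small constant, after a correction named RUVr in the name of the deposited table. Its settings, and the use of strand in counting, are not stated there. CPM were recovered by back-transforming and subtracting the shared floor, which gave whole corrected counts for 100% of values within 0.02. Raw depth is unknown.

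Models of log2(CPM + 0.5) were fitted by the eBayes method with a trend (limma 3.58.1, R 4.3.3) over 13184 genes with a mean of at least 1 CPM, with genotype and sex as terms. P-values were two-sided, adjusted by Benjamini-Hochberg over all these genes, with a threshold of 0.05. Differences are on the log2(CPM + 0.5) scale, which understates changes of low genes. No label says that libraries of a group came from separate animals, so p-values measure the spread between these libraries. Since the correction removed residual variation, the adjusted p-values may be too small. The planned test assumed CPM and was run on the recovered values. The members and lists were chosen with earlier results of these data known. By plan, members given by library were those past the threshold, the proteolytic beta subunits, Psme1, Psme2 and the smallest p in each role. Psmd3 and Psmd6 were given by library outside that plan. Psmb4, Psmd3, Psmd4, Psmd6, Psmd7, Psmc4 and members at the ends of a range were named after their values were seen. Among the partner genes, so were Nfe2l1, Mafg, Pomp, Ngly1, Vcp and Nfe2l2. Coordinates and lengths came from GENCODE M21 on mm10. The scripts were tested on simulated data, where the genotype term was called for 26.9% of 1.25-fold and 52.2% of 1.5-fold changes. These changes were planted in genes drawn from all those tested, low ones included, so the rates are not those of the members. A small difference that did not pass may still have been missed.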

Additional observations from a re-analysis of the deposited data

Results flagged for a closer look

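Among the 94 sets of values checked (47 members in each genotype), 3 held a library far from the others of its group, fewer than the 5% that chance gives. Psmc2, an ATPase, was at 291.5 CPM in Het replicate 7 and at 254.8 to 265.5 CPM in the other Het libraries. Psmc4, also an ATPase, was at 346.0 CPM in WT replicate 3 and at 298.3 to 309.9 CPM in the other WT libraries. Psme4, the large nuclear activator, was at 5.47 CPM in WT replicate 4 and at 7.80 to 8.48 CPM in the other WT libraries.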

How the results depend on the processing

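The number of members that fell (2) moved with most settings, while the number that rose (1) was kept in most and was otherwise 0. None passed in either direction (0 and 0) in females alone, in males alone, without WT replicate 11 and Het replicate 9 together, within prefix 14308 or within prefix 14309. The share of all genes called in these fits was 0%, 0.00758%, 1.74%, 0.0455% and 0.121%, so that 0 members is near the background in each. With the prefix as a block 0 rose (Psmd11 was lost) and 2 fell, where 2.28% of all genes were called. With 1 residual degree of freedom taken off 0 rose and 1 fell (1.43% of all genes called). With the GC trend alone taken out 0 rose and 3 fell (4.12% of all genes called). With a minimum of 5 CPM or with median centring 1 rose and 4 fell, where 5.26% and 3.61% of all genes were called. With quantile normalization, scaling to the same total, or length and GC taken out 1 rose and 1 fell, and with length alone 1 rose and 0 fell. The share of all genes called in these 4 fits was 3.52%, 5.92%, 1.24% and 0.85%. Leaving out each library gave 0 to 1 that rose and 0 to 5 that fell, while 1.06% to 6.22% of all genes were called. The core median of -0.16 became -0.071 with quantile normalization, -0.066 in females alone, -0.015 with length and GC and -0.012 with length alone taken out, and -0.27 within prefix 14308. The regulatory median of -0.11 became -0.044 with scaling to the same total, -0.038 with quantile normalization, -0.011 with length and GC and -0.0081 with length alone taken out, and -0.16 within prefix 14308. Psmb5 turned to 0.025 and 0.018 and Psmb6 to 0.0096 and 0.012 with length and GC and with length alone taken out, and Psmb8 to 0.024 in females alone. The cause of these shifts was not tested. Taking out a trend on length also takes out any genotype difference that goes with length. The 5 alternatives added after seeing the data were scaling to the same total, length alone, GC alone and each prefix alone. Both other pseudocounts, the deposited log2 values, no filter and voom kept 1 that rose and 2 that fell, with 2.82% to 3.44% of all genes called. No member passed for sex or for the interaction under any alternative fitted.

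The title numbers 4 and 7 occur in both genotypes, under different prefixes, and number 7 in different sexes, so they share only a number. The deviations of same-numbered libraries from their group means correlated at 0.131 and -0.0919 over genes. With this replicate block, fitted without the sex term and resting on the 2 shared numbers, 0 members rose and 0 fell. In that fit 0.349% of all genes were called, the core median was -0.079 and Psmb9 was at 0.089.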
